A study of Mus musculus with 9 samples.

Results

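Kidneys of mice without Notch3 were compared with kidneys of wild-type mice, all of them kidneys whose own ureter had not been tied. The comparison holds the difference between genotypes together with that between scan campaigns, which cannot be told apart. It rests on 4 of the 9 arrays of the series, chosen by their titles: 2 arrays of wild-type healthy kidneys and 2 arrays of Notch3-/- healthy kidneys. The other 5 arrays came from kidneys after unilateral ureteral obstruction (UUO), in which the right ureter was tied for 5 days, with 2 wild-type and 3 Notch3-/- arrays. The mice were 12 to 16 weeks old and, by the study's design text, matched by sex, which Xist and Ddx3y went against on 2 of the Notch3-/- UUO arrays. Each array carried Cy3-labelled cRNA made from RNA of the kidney cortex. The study's design text names the untouched left kidneys of operated mice as comparison tissue, while the labels call these 4 samples healthy and give neither the animal of each sample nor whether replicates came from separate animals. The p-values therefore measure only the spread between replicate arrays, pooled over the 9 arrays of the healthy and UUO groups, which may be technical. The 2 wild-type UUO arrays lay on the same slide, as did the 3 Notch3-/- UUO arrays, whereas the 4 healthy arrays lay on 4 slides. The pooled spread thus includes spread within a slide, while the healthy groups were compared between slides. The kind of Notch3 deletion and the strain of the mice are not given in the sources used here.

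Notch receptors are cut after they bind a Jagged or Delta-like ligand on a neighbouring cell, and the released intracellular part enters the nucleus and switches on genes such as those of the Hes and Hey families. Notch3 is known as the Notch receptor of vascular smooth muscle cells and pericytes, the contractile cells around small vessels, and it is needed for their maturation in resistance arteries. In the kidney these cells line the afferent and efferent arterioles, and their juxtaglomerular members make renin.

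Levels are given as log2 of the processed signal relative to the 75th percentile of the same array, and a difference is Notch3-/- minus wild-type on the log2 scale with its standard error (SE). A gene was called where limma, fitted to all 9 arrays, gave a Benjamini-Hochberg adjusted p under 0.05. Between 65.3% and 69.1% of the spots of the 4 healthy arrays were well above background and 0 were saturated. The 53 measured markers of the proximal tubule, the main cell type of the cortex, had median levels of 4.05 and 4.37 on the wild-type arrays and 4.26 and 4.30 on the Notch3-/- arrays. Ddx3y, a Y-linked gene, was at 0.36 and 0.17 on the wild-type arrays and at 0.42 and 0.21 on the Notch3-/- arrays, and the X-inactivation RNA Xist was not well above background on any of these 4 arrays. The wild-type arrays were scanned in one campaign and the Notch3-/- arrays in another, and the 4 healthy arrays lay on 4 slides, so genotype and scan campaign cannot be told apart. Of the 10 spike-in control RNAs, which are added to every sample and carry no genotype, 9 were lower on both Notch3-/- arrays than on both wild-type arrays. Their median level was 1.16 and 0.46 on the wild-type arrays and -0.23 and -0.51 on the Notch3-/- arrays, and the median of their differences was -0.72. The part of the campaign in the results below was not tested.

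Between the genotypes 122 transcripts of the 23878 tested were called, 0.511% of them. Of these, 57 were higher (0.239%) and 65 lower (0.272%) in Notch3-/- kidneys. The genes that rose included genes of mitosis and targets of p53, and the genes that fell included Notch3 itself, the chaperone Hspa1a, the hormone leptin and the growth factor binding protein Igfbp3. A symbol could be given to 78 of the called transcripts, 41 higher and 37 lower, and the other 44 were unnamed. In 68 of the 122 both groups had a signal well above background on at least 1 array, and the sizes of these differences ran from 0.88 to 4.81 with a median of 1.79, 64 of them above 2-fold. Among the 57 that rose, 29 were not well above background on the wild-type arrays. Among the 65 that fell, 25 were not well above background on the Notch3-/- arrays. For these the fold is given as a lower bound, which was above 2 for 23 of the 46 transcripts that had one. Of the 122 called transcripts, 5 were not well above background on any healthy array. The bounds hold for the processing of the text, and alternatives gave smaller differences for some of these transcripts. At an unadjusted p under 0.05 there were 4229 transcripts, 2435 higher and 1794 lower, and over all transcripts tested the median difference was 0.06.

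The number of calls rested on the estimate of the spread. Fitted to the 4 healthy arrays alone, limma called 0, with 2428 transcripts at an unadjusted p under 0.05. With the slide as a random block 12 were called, 7 higher and 5 lower, and among those with a symbol were Notch3, Lep, Dscaml1, Ccnb1ip1 and 4933416I08Rik. Without Notch3-/- healthy replicate 2 the count was 1, without Notch3-/- healthy replicate 1 it was 60, and without wild-type healthy replicate 1 or 2 it was 217 or 150. Arrays scaled to an equal median of ribosomal protein genes gave 104 higher and 1471 lower, against 57 and 65, and that scaling moved the median of all transcripts to -0.34. Each of the 122 kept its sign under every alternative in which it was tested, which carries little weight. Of them 0 overlapped between the healthy groups, so leaving out 1 array could not reverse a sign. Several other alternatives changed only the estimate of the spread.

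**Figure D1:**
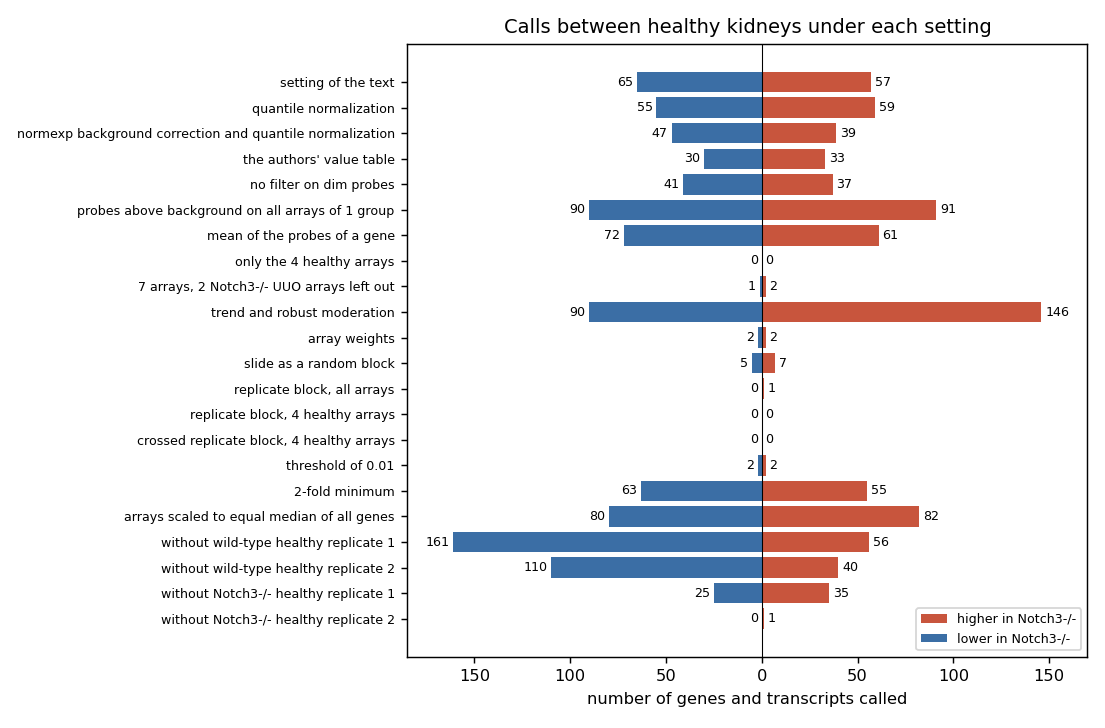
Number of transcripts called higher (right, red) and lower (left, blue) in Notch3-/- healthy kidneys under the setting of the text and under each alternative, except the scaling to ribosomal protein genes, which gave 104 higher and 1471 lower. The setting of the text gave 57 higher and 65 lower, and the fit of the 4 healthy arrays alone gave 0.

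Notch3 fell by the largest amount among the called genes with a symbol. Its probe was at -0.26 and -0.50 on the wild-type arrays and at -4.98 and -5.39 on the Notch3-/- arrays, a difference of -4.81 ± 0.27 (SE, n = 2 and 2; limma adjusted p = 0.00311), or 28.0-fold lower. The groups lay far apart, and the knockout label was borne out on both arrays, although the position of the probe relative to the deleted part is not known here. Over all alternatives the difference ran from -5.20 to -3.19. The call held with the slide as a random block (adjusted p = 0.0094). It was lost without Notch3-/- replicate 2 (adjusted p = 0.052), in the 4 healthy arrays alone (0.28) and with the replicate number as a block (0.14 in all arrays), at differences of -4.60 or larger in size.

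The other receptors and the ligands gave no call, so 1 of 10 measured members of that list was called. Notch2, the receptor of tubule formation, differed by 0.08 ± 0.13 (adjusted p = 0.78), a sign that turned to -0.31 under ribosomal scaling. Notch4, an endothelial receptor, differed by -0.57 ± 0.15 (adjusted p = 0.14). Notch1 was at 0.94 and -1.55 on the wild-type arrays and at -2.15 and -2.79 on the Notch3-/- arrays, a difference of -2.17 ± 0.73 that did not pass (adjusted p = 0.20). Wild-type replicate 1 alone stood well above the other 3 arrays for Notch1. The endothelial ligand Dll4 came nearest to the threshold, at -3.70 and -3.31 in wild-type and at -4.43 and -4.80 in Notch3-/- kidneys, a difference of -1.11 ± 0.19 (adjusted p = 0.067). Jag1, a ligand of endothelial and mural cells, differed by -0.06, Jag2 by -0.27, Dll1 by -0.60, Dll3 by 0.01 and Dlk1 by 0.44 ± 1.91. None of them was called, and Dll3 turned to -0.39 under ribosomal scaling.

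Genes downstream of Notch gave no call in either direction among 14 measured targets, whose median difference was -0.26 beside 0.06 for all transcripts. With 0.511% of all transcripts called, 0 calls does not set a list of such length apart, here or below. Heyl, the Hes-related factor known as a Notch3 target in vascular smooth muscle, was at -1.97 and -2.60 in wild-type and at -3.73 and -3.63 in Notch3-/- kidneys, a difference of -1.39 ± 0.41 (adjusted p = 0.17). The groups did not overlap for Heyl, as for 45.3% of all transcripts tested, but the difference did not pass. Hes1 differed by 0.04 ± 0.40, a sign that turned to -0.36 under ribosomal scaling, Hey1 by -0.43, Hey2 by -0.86 and Nrarp, a feedback inhibitor, by -0.58. Among 27 modifiers and signal components 0 were called, and Lfng, a glycosyltransferase that tunes ligand choice, had the smallest adjusted p at a difference of -1.54 ± 0.33 (adjusted p = 0.10).

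Genes of mitosis stood among the largest increases. Of 31 measured genes on the proliferation list, 4 rose and 0 fell, a share of 12.9% called beside 0.511% of all transcripts, and 30 of the 31 differences were positive. This list, like the others, was chosen with earlier results of these data known, so the share supports nothing by itself. The median difference of the list was 1.49, with a single negative member, Tyms, at -0.19. The median was 0.83 with normexp correction and 0.98 in the values the authors deposited. At an unadjusted p under 0.05, 21 members were higher, beside 2435 of all 23878 transcripts. The list's median lay at -3.03 and -3.02 on the wild-type arrays and at -1.68 and -1.14 on the Notch3-/- arrays, so replicate 2 of the Notch3-/- group was the higher of the pair. Among the members that act in DNA replication, Pcna differed by 0.19, Mcm2 by 0.35 and Mcm4 by 0.33, none of them called, and all 3 turned negative under ribosomal scaling.

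The promoters of the 4 called members are shown because genes expressed late in the cell cycle are known to share the CHR element, TTTGAA, and CCAAT boxes bound by NF-Y. Each sequence runs 5′ to 3′ on the minus strand of GRCm38.p6, from 150 bases before to 20 bases after the first start site listed by RefSeq, with matches to TTTGAA or CCAAT on either strand in capitals. The coordinates are chr13:100786467-100786636 for Ccnb1, chr9:70421535-70421704 for Ccnb2, chr4:118437324-118437493 for Cdc20 and chr7:135716360-135716529 for Mki67.
Ccnb1: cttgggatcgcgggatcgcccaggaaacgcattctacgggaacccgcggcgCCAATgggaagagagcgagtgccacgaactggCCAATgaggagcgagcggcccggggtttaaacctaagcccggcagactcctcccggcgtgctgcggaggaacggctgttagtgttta
Ccnb2: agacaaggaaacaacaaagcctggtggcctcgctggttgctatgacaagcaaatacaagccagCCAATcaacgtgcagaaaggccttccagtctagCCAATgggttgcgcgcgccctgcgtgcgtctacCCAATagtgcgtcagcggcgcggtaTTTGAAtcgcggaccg
Cdc20: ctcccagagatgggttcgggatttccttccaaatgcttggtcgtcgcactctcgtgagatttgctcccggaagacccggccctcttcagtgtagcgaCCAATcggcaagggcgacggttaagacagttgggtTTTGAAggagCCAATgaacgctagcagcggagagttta
Mki67: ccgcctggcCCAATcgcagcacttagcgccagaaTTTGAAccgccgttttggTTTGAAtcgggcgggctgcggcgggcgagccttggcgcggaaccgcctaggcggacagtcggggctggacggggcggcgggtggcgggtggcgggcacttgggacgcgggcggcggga
Each of these 4 windows held at least 1 CCAAT box, and 3 of the 4 held TTTGAA. Over windows of 300 bases, from 250 before to 50 after the start, TTTGAA stood in 14 of the 27 proliferation genes with a promoter in the table (51.9%), in 15 of 37 called higher genes (40.5%) and in 1 of 29 called lower genes (3.45%). Among all 27025 promoters its share was 18.1%, and among the 13142 matched genes tested it was 13.2%. CCAAT stood in 22 of the 27 proliferation genes (81.5%), 21 of the 37 higher genes (56.8%) and 10 of the 29 lower genes (34.5%), against 37.9% of all promoters. Both motifs occurred together in 29.7% of the higher genes and in 7.12% of all promoters. A match describes letters in a window and is not a bound site.

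Ccnb1 encodes cyclin B1, the partner of Cdk1 at entry into mitosis. It was at -4.83 and -5.24 on the wild-type arrays and at -2.31 and -1.75 on the Notch3-/- arrays, a difference of 3.01 ± 0.30 (limma adjusted p = 0.025). These values are of its brightest probe, and the differences of its 3 probes ran from 1.17 to 3.15. Ccnb2, cyclin B2, was at -2.89 and -2.99 against -0.68 and -0.15, a difference of 2.52 ± 0.26 (adjusted p = 0.025). For both cyclins the gap between the groups was wider than the spread within either pair of arrays, which follows in part from their being called. Cdc20, the activator of the anaphase-promoting complex, was at -2.78 and -2.52 against -0.30 and 0.54, a difference of 2.77 ± 0.31 (adjusted p = 0.025). Mki67, which encodes the Ki-67 protein that coats mitotic chromosomes, was at -2.39 and -2.53 against -0.38 and 0.38, a difference of 2.46 ± 0.35 (adjusted p = 0.046). With the slide as a random block the adjusted p was 0.053 for Ccnb1, 0.054 for Ccnb2 and Cdc20 and 0.10 for Mki67, so the calls of all 4 ended there. They also ended in the fits without wild-type replicate 2 or without Notch3-/- replicate 2, which called 0 members of the list.

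Several called genes outside the list, grouped here by their known roles in the cell cycle after their values were seen, also rose. Iqgap3, a scaffold of the contractile ring, was at -8.57 and -7.90 in wild-type and at -4.74 and -3.70 in Notch3-/- kidneys (adjusted p = 0.025). Its wild-type signal was not well above background, so it was at least 3.48-fold higher. The mitotic kinase Melk, not well above background in wild-type, was at least 4.94-fold higher (-7.75 and -7.44 against -4.19 and -3.24; adjusted p = 0.025). Pbk, another kinase of dividing cells, was measured in both groups at -5.80 and -6.00 against -2.90 and -1.71, a difference of 3.60 ± 0.38 (adjusted p = 0.025). Prc1, which bundles the microtubules of the central spindle, was at -3.72 and -4.06 against -1.48 and -0.55, a difference of 2.88 ± 0.40 (adjusted p = 0.045). Cdkn3, a phosphatase that acts on cyclin-dependent kinases, Cenpm, a centromere protein, and Kif4, a chromosome-bound kinesin, were at least 5.34-fold, 1.96-fold and 1.72-fold higher. Replicate 2 was the higher of the Notch3-/- pair in each of these genes. That their groups did not overlap was part of the rule that named them, and 45.3% of all transcripts tested did not overlap between the groups either. Cdk1 itself did not pass, at a difference of 2.83 ± 0.42 (adjusted p = 0.054), and its 3 probes did not share a sign, with a range of -1.02 to 2.83.

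**Figure D2:**
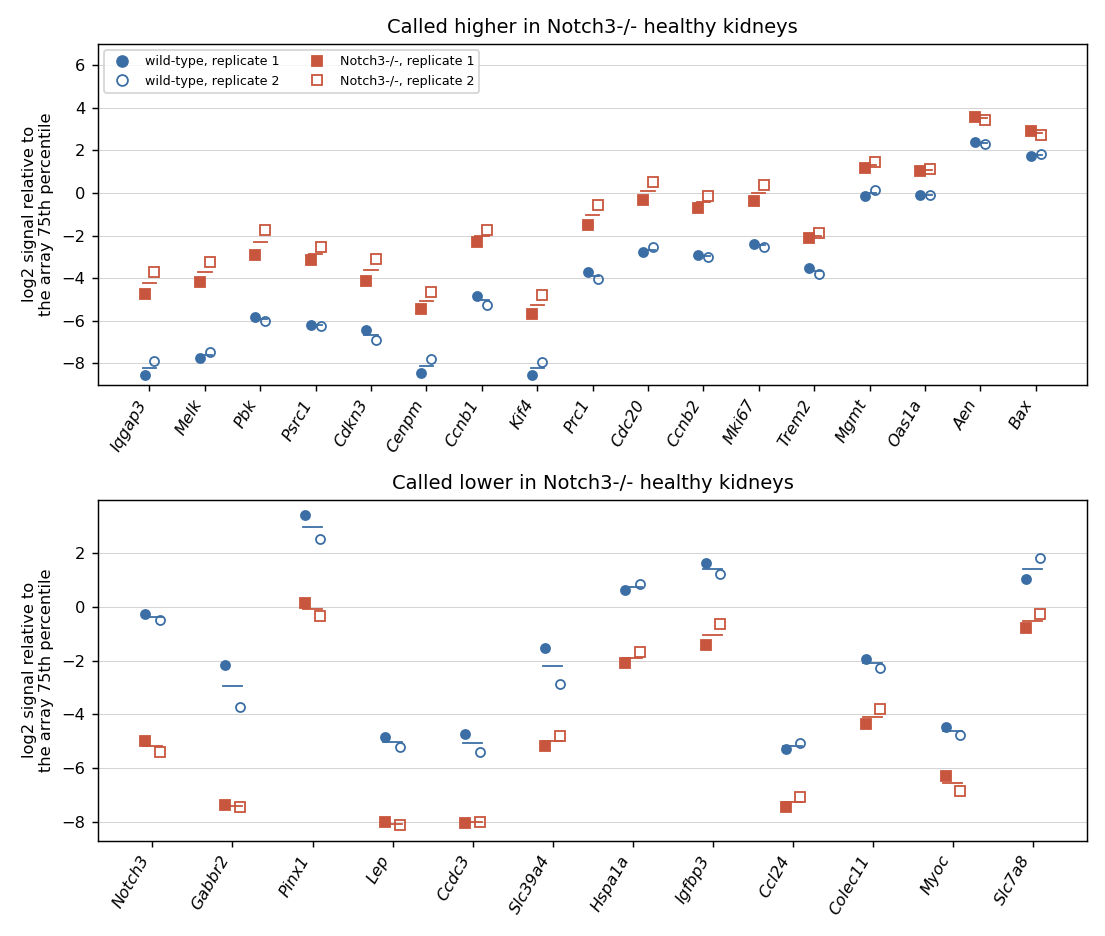
Level of genes named as called on each of the 4 healthy arrays, as log2 signal relative to the array's 75th percentile, with genes that rose in the upper panel and genes that fell in the lower panel. Circles are wild-type and squares Notch3-/- arrays, filled for replicate 1 and open for replicate 2, and short lines are group means. Ccnb1 lies at -4.83 and -5.24 in wild-type and at -2.31 and -1.75 in Notch3-/- kidneys. No gene shown overlaps between the groups, which holds for every called transcript.

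Targets of p53, the transcription factor of the DNA damage response, formed a second group among the increases. The list of 30 was chosen after the values were seen and supports nothing by itself. It had 5 members higher and 0 lower, 16.7% called beside 0.511% of all transcripts, with a median difference of 0.43 that became 0.04 under ribosomal scaling. Bax, which opens the mitochondrial outer membrane in apoptosis, was at 1.75 and 1.81 in wild-type and at 2.91 and 2.74 in Notch3-/- kidneys, a difference of 1.04 ± 0.14 (limma adjusted p = 0.038). Aen, a nuclease of apoptotic cells, was at 2.39 and 2.29 against 3.57 and 3.45, a difference of 1.17 ± 0.13 (adjusted p = 0.025). Replicates of both genes lay close together. The groups were separated for both, which adds nothing, as 0 called transcripts overlapped between the groups. Mgmt, which removes methyl groups from guanine in DNA, was at -0.14 and 0.12 against 1.16 and 1.45, a difference of 1.32 ± 0.18 (adjusted p = 0.042). The remaining called members, Psrc1 and Gtse1, act on microtubules in mitosis. Psrc1 was at least 8.53-fold and Gtse1 at least 3.05-fold higher under the processing of the text, both not well above background in wild-type. Over the alternatives their log2 differences were as small as 1.37 and 0.73. Cdkn1a, the p53 target that halts the cell cycle, differed by 1.76 ± 0.31 and Gdf15, a stress cytokine, by 1.95 ± 0.39, neither called (adjusted p = 0.073 and 0.087).

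Other increases belonged to no shared list. Ccnb1ip1, a meiotic ubiquitin ligase, was not well above background in wild-type at -8.60 and -7.92 and stood at -4.98 and -5.13 in Notch3-/- kidneys, at least 1.95-fold higher (adjusted p = 0.015). Dscaml1, a neuronal adhesion molecule, was at -7.55 and -7.69 against -4.52 and -4.53 by its brightest probe, at least 2.82-fold higher (adjusted p = 0.00311), whereas another probe of Dscaml1 differed by -0.05. Trem2, a lipid-sensing receptor of macrophages, was at -3.51 and -3.81 against -2.12 and -1.89, a difference of 1.65 ± 0.17 (adjusted p = 0.025). Trem2 was the single called gene among 23 macrophage and monocyte markers, whose median difference was -0.16. Oas1a, an interferon-induced sensor of double-stranded RNA, was at -0.08 and -0.10 against 1.06 and 1.11 by its brightest probe. This was a difference of 1.17 ± 0.15 (adjusted p = 0.035), whereas another probe of Oas1a differed by 0.48. Oas1a was the single call among 38 interferon response genes, with 27 of 38 differences positive and a median of 0.31 that turned to -0.09 under ribosomal scaling. Rnf39 differed by 2.90 (adjusted p = 0.044). Alox8, a lipoxygenase, and Olfr480, an olfactory receptor, were at least 1.52-fold and 2.03-fold higher against a wild-type signal not well above background (adjusted p = 0.031 and 0.025).

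Markers of vascular smooth muscle and pericytes, the cells in which Notch3 is known to act, lay lower as a list while Notch3 was the only member called. Of 24 measured markers, 21 had negative differences and 13 an unadjusted p under 0.05, the latter beside 4229 of all 23878 transcripts. The median was -1.03 beside 0.06 for all transcripts. The array medians were -0.12 and -0.98 in wild-type and -1.72 and -1.22 in Notch3-/- kidneys, and the median difference was -0.52 without wild-type replicate 1 and -1.59 without wild-type replicate 2. The summed linear level of the list, in multiples of the 75th percentile signal, was 50.6 and 41.8 on the wild-type arrays and 29.1 and 31.6 on the Notch3-/- arrays. Acta2, smooth muscle actin, was at 2.42 and 1.82 against 0.35 and 0.78, a difference of -1.56 ± 0.38 (adjusted p = 0.13). Des, the muscle intermediate filament desmin, differed by -1.40 ± 0.27 (adjusted p = 0.085) and Pdgfrb, the pericyte growth factor receptor, by -0.86 (adjusted p = 0.23). In bulk tissue, fewer cells of a type and less RNA per cell cannot be told apart.

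Renin itself, made by juxtaglomerular cells, was at -1.13 and -0.19 in wild-type and at -2.33 and -1.66 in Notch3-/- kidneys by the Ren1 probe, a difference of -1.34 ± 0.38 (adjusted p = 0.16). Among 13 renin-angiotensin genes 0 were called, with a median of 0.00, and Agt, the precursor of angiotensin, differed by 0.79 (adjusted p = 0.12).

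Endothelial markers also lay lower, with 0 of 22 called beside 0.511% of all transcripts, 19 negative differences and a median of -0.69. Their summed level was 58.1 and 54.5 on the wild-type arrays and 39.9 and 40.4 on the Notch3-/- arrays. Tek, the angiopoietin receptor Tie2, was at -1.88 and -2.12 against -3.46 and -3.54, a difference of -1.50 ± 0.22 that fell just short of the threshold (adjusted p = 0.0503). Plvap, the diaphragm protein of fenestrated capillaries, was at 3.14 and 3.20 against 1.53 and 2.07, a difference of -1.37 ± 0.21 (adjusted p = 0.058). Both genes were separated between the groups, as were 45.3% of all transcripts tested. At an unadjusted p under 0.05, 12 of the 22 markers were lower, beside 1794 of all 23878 transcripts. Kdr, the main VEGF receptor, differed by -0.15 (adjusted p = 0.84), so the markers did not move alike.

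Fibroblast markers and matrix genes gave no call, beside 0.511% of all transcripts called. The 16 fibroblast markers had 16 negative differences and a median of -0.85, but their summed level of 35.0 and 21.5 in wild-type overlapped that of 14.5 and 22.7 in Notch3-/- kidneys. Pdgfra, the receptor that marks interstitial fibroblasts, differed by -1.73 ± 0.38 (adjusted p = 0.11). The collagens Col1a1 and Col3a1 differed by -0.10 and -0.28 (adjusted p = 0.92 and 0.83), and fibronectin, Fn1, by 0.31 (adjusted p = 0.68), which turned to -0.09 under ribosomal scaling. Both collagens turned positive without wild-type replicate 1 or without Notch3-/- replicate 1. Tgfb1, the main profibrotic cytokine, differed by -0.37 (adjusted p = 0.50). Of 33 TGF-beta, BMP and PDGF signalling genes 0 were called, with 18 positive and 15 negative differences. Nearest to the threshold were Bmp4 at 0.90 ± 0.13 and Ccn2 at -1.69 ± 0.28 (adjusted p = 0.052 and 0.064). The 34 extracellular matrix genes had a median of -0.36. Of 16 podocyte markers 0 were called at a median of -0.22, and Podxl, the sialoprotein of the podocyte surface that endothelium also makes, came nearest at -1.33 ± 0.21 (adjusted p = 0.063).

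**Figure D3:**
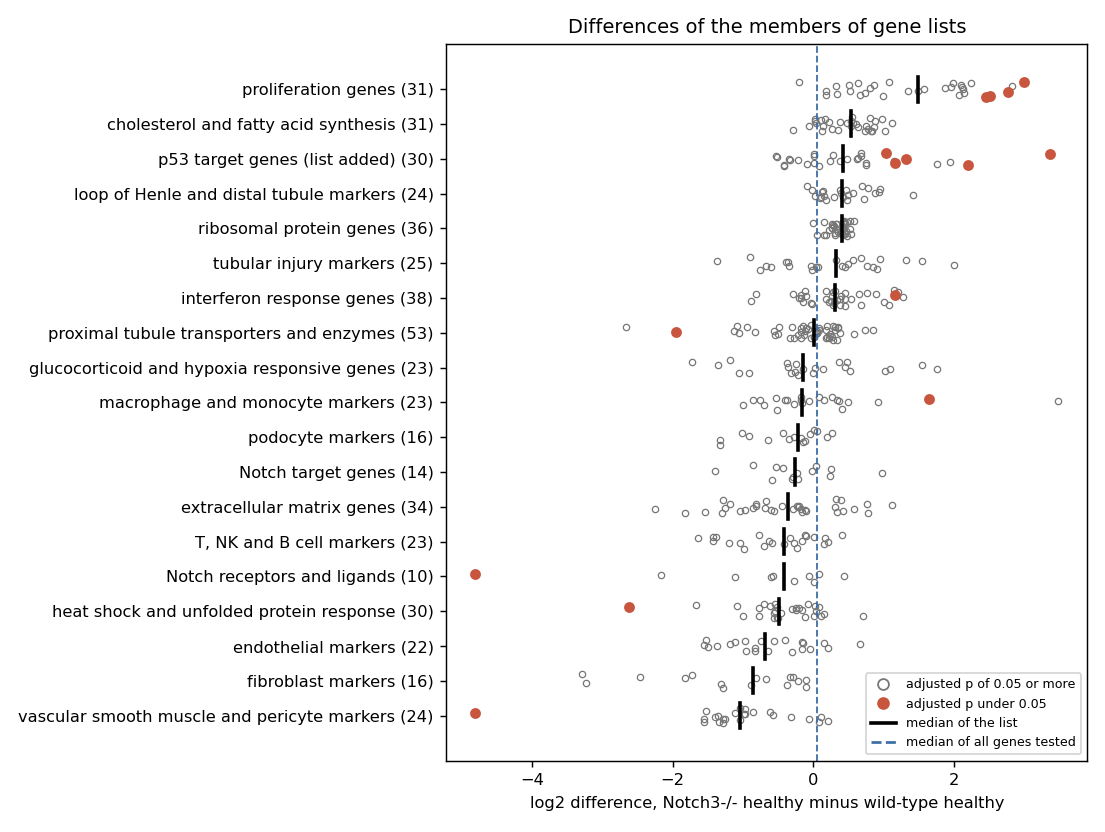
Differences of single genes (circles; log2, Notch3-/- healthy minus wild-type healthy) in 19 gene lists, with the number of measured members in brackets, called members filled red, the list median as a black bar and the median of all transcripts tested as a dashed line. Among the lists shown, the proliferation list stands farthest right at a median of 1.49 with 4 called members and the vascular smooth muscle and pericyte list farthest left at -1.03 with Notch3 called. The adipocyte (-2.14) and urothelial (-1.68) lists lie farther left and are not drawn here.

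Hspa1a, the stress-inducible chaperone HSP70, was the largest decrease with a known stress role. It was at 0.62 and 0.86 in wild-type and at -2.10 and -1.66 in Notch3-/- kidneys, a difference of -2.62 ± 0.26 (limma adjusted p = 0.025, 0.053 with the slide as a random block). Hspa1b is a near-identical copy, so the signal may include both genes. The Hspa1a promoter is shown because heat shock factor is known to bind inverted GAA repeats, searched here as GAANNTTC and marked in capitals, at chr17:34972137-34972306 on the minus strand of GRCm38.p6 with the same window as above.
Hspa1a: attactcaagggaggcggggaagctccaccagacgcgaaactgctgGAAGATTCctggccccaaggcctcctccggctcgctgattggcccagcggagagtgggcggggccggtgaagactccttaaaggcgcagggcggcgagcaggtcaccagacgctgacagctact
The motif stood in 8 of 25 heat shock and unfolded protein response genes with a promoter (32.0%), in 6 of 29 called lower genes (20.7%), in 3 of 37 called higher genes (8.11%), in 5 of 27 proliferation genes (18.5%) and in 7.95% of all promoters. Hspa1a was the single call among 30 genes of that list, where 23 differences were negative and the median was -0.48. Hspb1, the small heat shock protein, was at 3.91 and 3.03 against 1.69 and 1.92, and Hsph1, a cochaperone of HSP70, at 3.87 and 3.76 against 2.78 and 2.67. These differences of -1.67 and -1.09 did not pass (adjusted p = 0.12 and 0.13). Among 23 glucocorticoid and hypoxia responsive genes 0 were called, with 10 positive and 13 negative differences and a median of -0.14. At an unadjusted p under 0.05, 6 members were higher and 3 lower, beside 2435 and 1794 of all 23878 transcripts. The 2 nearest to the threshold, the glucocorticoid targets Zbtb16 and Tsc22d3, differed by -1.72 ± 0.26 and -1.18 ± 0.21 (adjusted p = 0.054 and 0.073).

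The other large decreases had different functions. Gabbr2, a subunit of the GABA-B receptor, was at -2.16 and -3.71 in wild-type and at -7.37 and -7.44, not well above background, in Notch3-/- kidneys, at least 8.61-fold lower (adjusted p = 0.033). Pinx1, an inhibitor of telomerase, was at 3.40 and 2.51 against 0.16 and -0.35, a difference of -3.05 ± 0.36 (adjusted p = 0.028). The Pinx1 values of the groups were far apart relative to the spread within them, which follows in part from its being called. Igfbp3, the main carrier of insulin-like growth factors in blood, was at 1.62 and 1.23 against -1.41 and -0.65, a difference of -2.45 ± 0.31 (adjusted p = 0.035). Slc39a4, a zinc importer, was at -1.53 and -2.85 against -5.18 and -4.80, a difference of -2.80 ± 0.40 (adjusted p = 0.047). Slc7a8, the basolateral amino acid transporter of the proximal tubule, was at 1.05 and 1.80 against -0.80 and -0.26, a difference of -1.95 ± 0.28 (adjusted p = 0.046). It was the single call among 53 proximal tubule genes, whose median was 0.01.

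Lep, which encodes the fat hormone leptin, was at -4.85 and -5.22 in wild-type and not well above background at -8.00 and -8.11 in Notch3-/- kidneys, at least 2.01-fold lower (adjusted p = 0.00311). Ccl24, the eosinophil chemokine eotaxin-2, was at -5.29 and -5.05 against -7.44 and -7.08, at least 1.83-fold lower (adjusted p = 0.025), and was the single call among 40 chemokines and cytokines. Ccdc3, a secreted protein of fat and endothelium, and Myoc, myocilin, were at least 1.96-fold and 2.71-fold lower. Colec11, a complement-activating lectin, differed by -1.99 ± 0.28 (adjusted p = 0.045). The transcripts Gm8765 and 4933416I08Rik, not well above background in Notch3-/- kidneys, were at least 1.96-fold and 1.58-fold lower, and Gm5820, measured in both groups, differed by -2.72. Among 23 markers of T, NK and B cells 0 were called, with 18 negative differences and a median of -0.41, and Ccl2, the monocyte chemokine, differed by 0.56 (adjusted p = 0.36).

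Marker levels of tissue outside the cortex varied within the groups. The 12 adipocyte markers had medians of 2.39 and -0.45 on the wild-type arrays and -4.83 and 2.28 on the Notch3-/- arrays, and Lep was the only member called. Adipoq, adiponectin, was at 1.91 and -0.54 in wild-type and at -8.04 and 1.71 in Notch3-/- kidneys, so its groups overlapped, whereas Lep was low on both Notch3-/- arrays. The 15 urothelial and squamous markers had medians of -1.18 and -4.60 in wild-type and -5.14 and -4.96 in Notch3-/- kidneys, and 0 were called. Wild-type replicate 1 thus carried the most of both, and Notch3-/- replicate 1 the least adipocyte signal. Their part in the called differences was not tested.

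**Figure D4:**
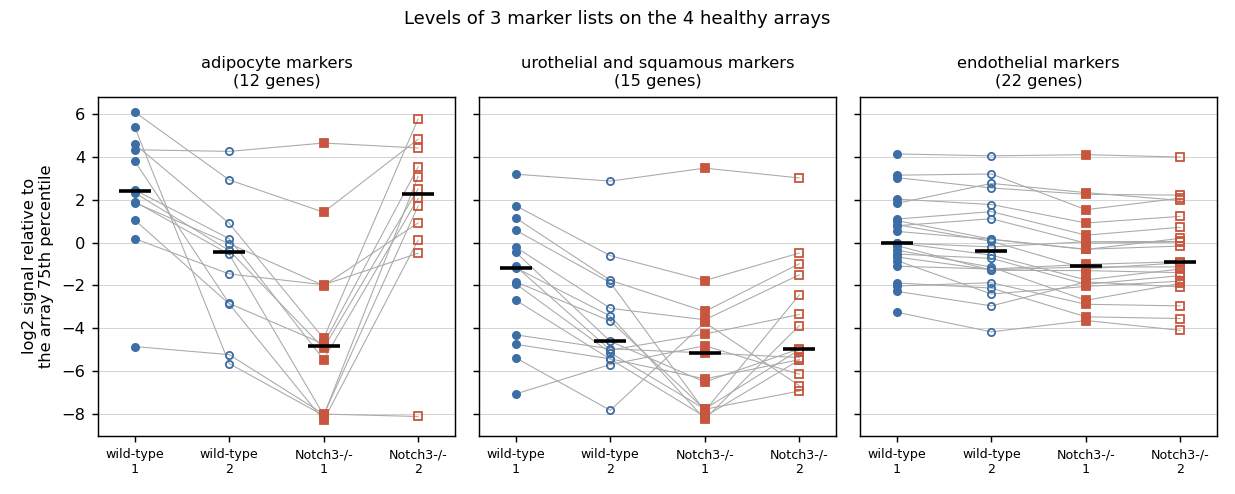
Level of each member of 3 marker lists on the 4 healthy arrays, as log2 signal relative to the array's 75th percentile, with a grey line joining each gene and a black bar at the list median. Adipocyte medians run from -4.83 to 2.39 without following genotype, urothelial medians are highest on wild-type replicate 1, and endothelial medians are lower on both Notch3-/- arrays.

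Lists of the nephron gave 0 called members except the single proximal tubule gene above, beside 0.511% of all transcripts called. The 24 loop of Henle and distal tubule markers had 22 positive differences and a median of 0.41, which became 0.01 under ribosomal scaling, and Umod, the uromodulin of the thick ascending limb, differed by 0.95 ± 0.16 (6.72 and 6.83 against 7.57 and 7.87; adjusted p = 0.072). The 22 collecting duct markers had a median of 0.37, which turned to -0.03 under that scaling. Havcr1, the injury marker KIM-1, was at -5.85 and -5.79 in wild-type and at -3.50 and -4.12 in Notch3-/- kidneys, a difference of 2.01 ± 0.34 (adjusted p = 0.068). Lcn2, the injury marker NGAL, differed by 1.55 ± 0.50 (adjusted p = 0.19), and the 25 tubular injury markers had a median of 0.33 that turned to -0.07 under ribosomal scaling. The 31 genes of cholesterol and fatty acid synthesis had 29 positive differences and a median of 0.54, which stayed at 0.15 under that scaling, with 0 called. The 36 ribosomal protein genes had 35 positive differences, a median of 0.41 and 0 called.

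Around the Notch3 gene, the 60 nearest genes with a tested probe, 30 on each side, had 1 call and a median difference of 0.02. That call was Glo1, the glyoxalase that clears methylglyoxal, at 2.68 and 2.62 in wild-type and 3.93 and 3.92 in Notch3-/- kidneys, a difference of 1.27 ± 0.18 (adjusted p = 0.044). Chromosome 17, which carries Notch3, had 10 called of 834 genes with a symbol (1.20%), beside 78 of all 16599 genes with a symbol. With unnamed transcripts included, 0.511% of all were called. The 10 were Notch3 itself, Hspa1a, Adgrf4, Abca17, Fgd2, Glo1, Trem2, Trim40, Uhrf1 and Rnf39. Chromosome 14, with 8 of 581 (1.38%), had the highest share.

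The same genotypes were also compared after obstruction, in arrays that the healthy comparison does not use but that share its scan campaigns and its estimate of the spread. The 3 Notch3-/- UUO arrays also lay on the same slide as Notch3-/- healthy replicate 1. In UUO kidneys 71 transcripts were called, 0.297% of those tested, and 25 were called in both comparisons with the same sign, 9 higher and 16 lower. These were 20.5% of the healthy calls and 35.2% of the UUO calls, and 7 had a symbol: Notch3, Dscaml1, Ccnb1ip1, Trim40, Lep, Adgrf4 and 4933416I08Rik. Of the 3 Notch3-/- UUO arrays, 2 had Xist at 0.18 and -0.00 and Ddx3y at -3.80 and -3.67, unlike the other 7 arrays, and without those 2 arrays 0 transcripts were called in both comparisons and 3 in healthy kidneys. The same 2 arrays had the adrenal cortex markers Hsd3b1 at 6.30 and 6.51 and Cyp11a1 at 2.70 and 3.17. On the other 7 arrays both markers lay below -2.3. Notch3-/- UUO replicate 1 correlated with these 2 arrays at 0.971 and 0.968, against 0.991 between the 2. Notch3 itself differed by -4.69 in UUO kidneys (adjusted p = 0.00401), close to the -4.81 of healthy kidneys.

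The transcripts were chosen for their difference in healthy kidneys, so a smaller difference in another set of arrays follows in part from that choice. The 57 transcripts that rose in healthy kidneys had a median difference of 2.54 there and of 0.36 in UUO kidneys, where 44 kept a positive sign and 31 lay within 0.5 of 0. The 65 that fell had medians of -1.96 and -1.03, 56 kept a negative sign and 20 lay within 0.5 of 0. Among those measured in both healthy groups, the medians were 2.19 and 0.36 for the 28 that rose and -1.70 and -0.89 for the 40 that fell. The proliferation list, at a median of 1.49 in healthy kidneys, was at -0.01 in UUO kidneys, where its array medians were -0.38 and -0.55 in wild-type and -0.77, -0.24 and -0.49 in Notch3-/- kidneys. Its levels thus lay higher on all 5 UUO arrays than on the 4 healthy arrays. In UUO kidneys Ccnb1 differed by 0.05, Mki67 by 0.01, Cdc20 by 0.28 and Melk by 0.02, while Dscaml1 differed by 2.45 and Ccnb1ip1 by 2.79. Bax, Aen and Glo1 differed there by 0.61, 0.74 and 1.12, none of them called, and Hspa1a by -0.71. The test of the difference between the 2 comparisons, an interaction term in limma, called 0 transcripts, with a smallest adjusted p of 0.16 and 1705 transcripts at an unadjusted p under 0.05, so no gene was shown to respond differently to genotype in healthy and obstructed kidneys.

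**Figure D5:**
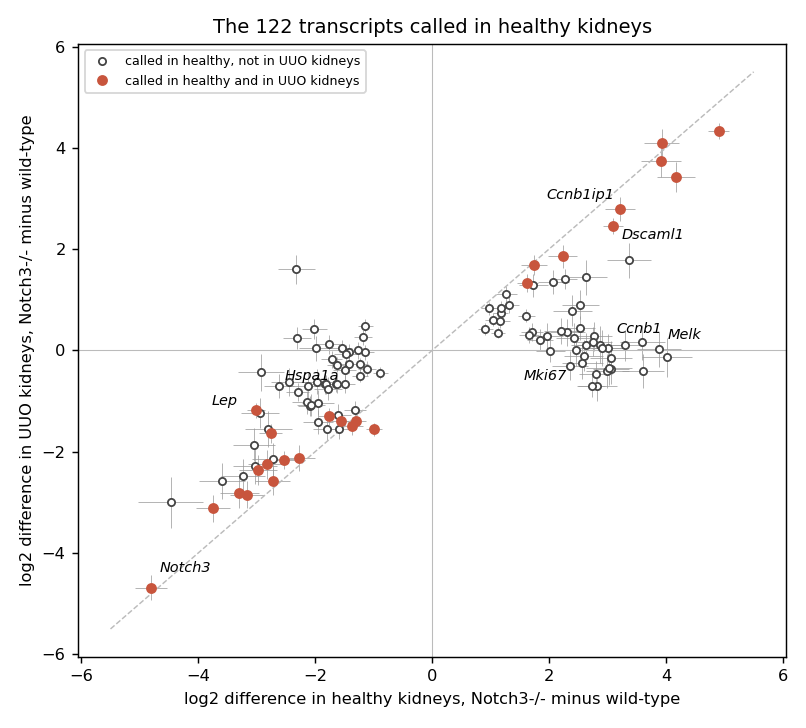
Difference between genotypes (log2, Notch3-/- minus wild-type) in healthy kidneys on the horizontal axis and in UUO kidneys on the vertical axis for the 122 transcripts called in healthy kidneys, with standard errors as lines and filled points for the 25 called in both. Of these transcripts, 54 had a healthy group not well above background. Notch3 lies near the dashed line of equal difference, at -4.81 and -4.69, whereas Ccnb1 lies near 0 on the vertical axis, at 3.01 and 0.05.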

How the data were processed

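Each array was hybridised with Cy3-labelled cRNA of 1 sample. Per the file headers, spots were read with Feature Extraction 10.7.3.1 (the submitters' processing notes give 10.5), and the processed signal is an intensity with the background subtracted and no normalization between arrays. The value table deposited by the authors holds log2 values with column medians of 7.02 to 7.05, which correlated with the processed signals at 0.971 to 0.986. It was used as an alternative, and no source used here gives the method behind it.

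Outlier spots were dropped, and log2 of the signal was taken relative to the 75th percentile of the 43020 non-control spots of the array. Of 39429 probes, the 29335 that exceeded background clearly on 2 or more of 9 arrays were kept. The RefSeq gene table (GRCm38.p6) gave names to 27228 probes by accession, and the brightest probe stood for a gene. This left 23878 genes and unnamed transcripts, 16599 with a symbol. Of the 122 called transcripts, 11 had several kept probes, and for 3 of these the probes did not share a sign. Group means were fitted to 9 arrays with limma 3.58.1 in R 4.3.3 (5 residual degrees of freedom), adjusted by Benjamini and Hochberg at 0.05, and the procedure was tested on simulated data. Where a group was not well above background, the fold is a lower bound: the mean of the brighter group against, per array, the higher of the dim probe's signal and the lowest signal well above background. This bound holds for the processing of the text only. Gene lists were described by counts and medians, without a test. A sum of levels adds linear values.

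Promoters came from RefSeq. Where a symbol had several, the first was used.

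Genes were named by a rule: the 15 largest differences in each direction with no overlap and a signal above background in the higher group, up to 4 called members of each list or 2 nearest to the threshold, the Notch receptors and ligands, a fixed set of fibrosis, injury and sex genes, and the called genes nearest to Notch3. Some genes that the rule picked are left out of the text. Among them are Col8a1, Timp4, Per2, Krt15, Cfi, C4b and Mmp8, none of them called. Bax, Aen, Mgmt, Gtse1, Cdkn1a, Gdf15, Tyms, Pcna, Mcm2, Mcm4, Cdk1, Kdr, Des, Hspb1, Hsph1, Adipoq, Adgrf4 and Uhrf1 were named after their values were seen. The members and lists were chosen with earlier results of these data known. Alternatives were other normalizations, filters, models and left-out arrays; the scalings to ribosomal or all genes and the crossed block were added after the data were seen. Replicate numbers were not shown to pair the samples.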

Additional observations from a re-analysis of the deposited data

How the results depend on the processing

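The 122 calls, 57 higher and 65 lower, were 63 (33 and 30) with the authors' value table and 78 (37 and 41) without the filter on dim probes. A stricter filter gave 91 higher, and trend and robust moderation gave 236 calls with 146 higher. There were 0 calls (0 and 0) in the 4 healthy arrays alone, 3 (2 and 1) in 7 arrays without the 2 Notch3-/- UUO arrays of high Xist, 4 (2 and 2) with array weights, 12 (7 and 5) with the slide as a random block and 4 (2 and 2) at a threshold of 0.01. Calls shared with UUO kidneys, 25 in the text, were 0 in the 7 arrays, 4 with array weights and 2 with the slide block. Arrays scaled to ribosomal protein genes, a choice made after the data were seen, gave 1575 calls (104 and 1471). Leaving out each healthy array in turn gave 1 to 217 calls, 1 to 56 higher and 0 to 161 lower, the lowest without Notch3-/- replicate 2 and the highest total without wild-type replicate 1. The differences of replicate 1 minus replicate 2 in the healthy groups were nearly unrelated over genes (correlation -0.11). With the replicate number as a block 1 transcript was called in all arrays (1 higher and 0 lower) and 0 in the 4 healthy arrays (0 and 0), and with crossed numbers 0 (0 and 0).

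Signs reversed in genes that were not called, and the cause was not tested. With normexp correction Ddx3y turned to -0.12, Dll3 to -0.0017 and Hes1 to -0.070, and in the authors' table Ddx3y turned to -0.092 and Hes1 to -0.063. Under ribosomal scaling Ddx3y turned to -0.34, Dll3 to -0.39, Fn1 to -0.088, Hes1 to -0.36, Mcm2 to -0.048, Mcm4 to -0.063, Notch2 to -0.31 and Pcna to -0.21. Leaving out each healthy array in turn moved Adipoq from -8.72 to 1.02, Col1a1 from -0.49 to 0.28, Col3a1 from -0.92 to 0.35, Ddx3y from -0.057 to 0.16, Dll3 from -0.45 to 0.46, Hes1 from -0.34 to 0.42 and Hey2 from -1.78 to 0.068. The same fits moved Jag1 from -0.50 to 0.37, Jag2 from -0.62 to 0.090, Kdr from -0.61 to 0.32, Mcm4 from -0.058 to 0.72 and Notch2 from -0.0030 to 0.17. The number of arrays and, for dim probes, the signal over background limit the precision.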
